A study of Mus musculus with 27 samples.

Results

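Intestine of mice given 15 Gy of gamma radiation was compared with intestine of mice given 6 Gy, both taken 24 h after exposure, by RNA sequencing of whole tissue. The comparison uses 6 of the 27 libraries of the series, chosen by their titles, with 3 libraries at each dose. All libraries came from wild-type male C57BL/6 mice aged 6 to 8 weeks and the radiation came from a 60Co source at 72 R/min. The 15 Gy group and the 6 Gy group received no CBLB502, per their labels. Another pair of groups, 15 Gy with CBLB502 and 6 Gy with CBLB502, was taken at 24 h too. The design text gives the drug 0.5 h before exposure for 15 Gy. A further pair, 15 Gy and 6 Gy, was taken at 6 h. Each of these 4 groups and the control group holds 3 libraries. The design text lists 7 groups of 10 mice, and neither 6 Gy group at 24 h is among them, so those groups rest on the sample titles. Nothing in the labels says that the libraries of a group came from separate mice. The p-values here reflect only how far libraries scatter within the 9 groups of the series, since all 27 entered the fit. That scatter may be technical. The segment of intestine is not given.

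The intestinal epithelium is renewed from stem cells at the base of the crypts, whose daughters divide a few times and then move onto the villus as enterocytes that no longer divide. Ionizing radiation breaks DNA, activates the transcription factor p53 and kills or arrests the dividing crypt cells, while enterocytes already on the villus persist until they are shed. CBLB502 is a drug derived from bacterial flagellin that activates Toll-like receptor 5. In whole tissue, fewer cells of a type and less RNA per cell cannot be told apart, and this holds for every gene group below.

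The libraries of the doses differed in technical measures. Total counts were 78887925, 80482937 and 78788845 at 15 Gy in replicates 1, 2 and 3, against 57438640, 67279339 and 58511784 at 6 Gy. TMM scaling factors, which correct for the make-up of a library, ranged from 0.838 to 0.975 at 15 Gy and from 1.235 to 1.358 at 6 Gy, and the 10 most abundant genes took 19.9% to 28.1% of the counts at 15 Gy and 14.8% to 16.9% at 6 Gy. The summed level of 8 epithelial marker genes (Vil1, Cdh17, Epcam, Krt20, Fabp2, Lct, Sis and Alpi) was 28910 to 36900 CPM (counts scaled to a common library size) at 15 Gy and 21700 to 22680 CPM at 6 Gy, none of them at 0, so that the tissue label held. The libraries of 6 Gy with CBLB502 had scaling factors of 1.242 to 1.425, above every library outside the 6 Gy groups of 24 h. A batch cannot be told apart from the dose here, since the labels name none and each group holds 1 dose. One 6 Gy library, replicate 2, carried RNA of digestive enzymes of the pancreas, with Amy2a3 at 1218 CPM, against 14.0 and 24.6 CPM in the other 6 Gy libraries and 0.0523 to 5.28 CPM at 15 Gy. One 15 Gy library, replicate 1, was the highest for Nos2 and Duox2, inflammatory genes of the epithelium. Counts of called genes are also given without these 2 libraries, a choice made after the values were seen. Levels below are given in CPM in the order replicate 1, 2, 3, and fold changes are log2 of 15 Gy over 6 Gy.

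At an adjusted p under 0.05 in edgeR's quasi-likelihood test, 1736 of 11118 genes tested differed (15.6%), 955 higher at 15 Gy (8.59%) and 781 lower (7.02%). Among the genes tested the falls were the larger ones, since 476 of the 781 genes that fell changed over 2-fold (median log2 fold change -1.191), against 242 of the 955 that rose (median 0.687). Of the 11118 genes, 10100 would have passed the filter on low values without the 6 Gy libraries of 24 h. Here and in later statements on the filter these are the libraries of both 6 Gy groups of 24 h, with and without CBLB502. The filter thus favours genes that are high there, and its part in the larger falls was not tested. Libraries of the doses did not overlap for 3955 genes (35.6%), the level to which any count of non-overlapping members below compares. Counts of members that rose or fell compare likewise with 8.59% and 7.02%. Without the 2 doubtful libraries 580 genes passed, and leaving out 1 library left 714 (15 Gy replicate 1), 1870 (15 Gy replicate 2), 943 (15 Gy replicate 3), 773 (6 Gy replicate 1), 1501 (6 Gy replicate 2) and 862 (6 Gy replicate 3). The split of higher and lower genes rests on the scaling. On the deposited FPKM values, which are scaled to the total of each library and not by TMM, the median of all genes lay at -0.346 (log2(FPKM + 1)), and 175 genes were called higher and 4274 lower by limma, so that 3.93% of the called genes were higher. Medians of groups are accordingly given also on the FPKM scale, with their distance from the median of all genes there. Of the 56 named genes called higher at 15 Gy, 32 were also called higher by limma on that scale, and of the 46 called lower all 46 were called lower. Limma did not call Sesn1, Casp8, Bid, Axin2, Cfb, Pyy, Mep1b, Cdhr2, Plb1, Slc7a9, Mogat2, Cxcl16, Heph, Isx, Tcn2, Slc51a, Saa1, mt-Co2, Cox6b1, Cox6a1, Cdh17, Krt20, Fabp2 and Vil1, and the sign turned for Vil1. With only these 6 libraries in the fit 307 genes passed, 28 of them among the 102 named genes called. In that fit 1 mitosis, 1 replication, 4 ribosomal protein, 1 brush-border, 2 lipid, 4 junction and 1 defence gene kept a call in the direction given below, and no p53 target, stem cell, T cell or B cell gene did.

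Most tested genes of mitosis fell at 15 Gy. Of 50 genes of mitosis listed, 18 passed the filter on low values, and 14 of these fell (against 7.02% of all genes), none rose and 4 did not pass the test. Plk1, a kinase needed for spindle assembly, had 2.13, 2.3 and 2.12 CPM at 15 Gy, against 8.27, 4.82 and 6.89 CPM at 6 Gy, log2 fold change -1.61 (SE 0.34, adjusted p = 0.00475). The gene lies at 122159439 to 122169873 of chromosome 7 (GRCm38). Its 15 Gy libraries lay within a narrow band below every 6 Gy library. Stmn1, which destabilises microtubules, had 0.928, 2.3 and 1.29 CPM at 15 Gy, against 12.9, 3.12 and 9.21 CPM at 6 Gy, log2 fold change -2.48 (SE 0.43, adjusted p = 0.00148). Hmgb2, a chromatin protein of proliferating cells, had 6.02, 5.44 and 3.3 CPM at 15 Gy, against 21, 7.2 and 13.2 CPM at 6 Gy, log2 fold change -1.49 (SE 0.34, adjusted p = 0.00692), and the proliferation marker Mki67 had 1.27, 2.88 and 3.62 CPM at 15 Gy, against 15.8, 4.05 and 9.34 CPM at 6 Gy, log2 fold change -1.91 (SE 0.61, adjusted p = 0.0373). Within the 6 Gy group replicate 2 was the lowest and replicate 1 the highest for each of these 4 genes, and the groups overlapped in none of them. The range of log2 fold changes over the 14 genes was -2.67 (the cyclin Ccnb2) to -1.01 (the kinase subunit Cks2). The summed level of the 50 genes was 58.8, 64.1 and 75.2 CPM at 15 Gy and 224, 91.5 and 155 CPM at 6 Gy. In the control libraries it was 74.4 to 102 CPM. Of the 18 genes tested, 9 would have passed the filter without the 6 Gy libraries of 24 h, so the filter favours genes that are high there. Of the 32 genes below the filter, 31 had a lower and 1 a higher mean at 15 Gy. The count of 14 was 10 without the 2 doubtful libraries, 5 without 15 Gy replicate 1, 8 without 15 Gy replicate 2, 2 without 6 Gy replicate 1 and 7 without 6 Gy replicate 3. Plk1 passed the test under each of the 17 alternatives, while the call of Mki67 was lost without 15 Gy replicates 1, 2 or 3 and without 6 Gy replicates 1 or 3 (adjusted p up to 0.186), and those of Hmgb2 and Ccnb2 without 6 Gy replicate 1 (0.0581 and 0.0571).

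Promoters of these genes are shown because mitotic genes are known to share a pair of short elements, the cell cycle homology region (CHR) and the CCAAT box, through which they are switched on late in the cycle. In the RefSeq promoters (build GRCm38.p6) 42 of the 50 genes were matched by symbol, and the 250 bases before the start were searched on both strands for the CHR core, TTTGAA or its reverse complement TTCAAA, and for CCAAT or its reverse complement ATTGG. Neighbouring matches may share bases. The CHR core was present in 15 of 42 promoters (35.7%), against 16.3% of all 27025 promoters, and CCAAT in 33 (78.6%), against 34.5%. Both were present in 14 of 42 (33.3%), against 5.73% of all promoters. Among the 12 matched genes that fell, 7 held both (58.3%), and among the 15 matched genes tested, which include those 12, 8 did (53.3%). As those 12 are among the 15, these shares cannot tell whether the elements set the genes that fell apart. These 4 windows, 5′ to 3′ and ending at the base before the start, show fallen genes with both elements (Ube2c, the ubiquitin enzyme of the anaphase-promoting complex, Cks1b and Hmgb2) and one with CCAAT alone (Plk1). Capitals mark the elements.
Ube2c (chr2:164769679-164769928, plus strand): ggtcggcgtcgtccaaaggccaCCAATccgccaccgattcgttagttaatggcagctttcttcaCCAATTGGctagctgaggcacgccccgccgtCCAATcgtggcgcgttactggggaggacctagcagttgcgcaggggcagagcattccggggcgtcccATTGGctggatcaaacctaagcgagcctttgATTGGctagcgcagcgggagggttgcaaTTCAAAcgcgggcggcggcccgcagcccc
Cks1b (chr3:89418292-89418541, minus strand): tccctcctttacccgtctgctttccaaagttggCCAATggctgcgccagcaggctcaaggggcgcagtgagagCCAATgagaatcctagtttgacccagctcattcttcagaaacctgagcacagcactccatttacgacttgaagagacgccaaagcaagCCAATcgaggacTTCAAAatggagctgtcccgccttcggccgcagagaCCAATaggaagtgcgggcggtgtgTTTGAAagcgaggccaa
Hmgb2 (chr8:57511593-57511842, plus strand): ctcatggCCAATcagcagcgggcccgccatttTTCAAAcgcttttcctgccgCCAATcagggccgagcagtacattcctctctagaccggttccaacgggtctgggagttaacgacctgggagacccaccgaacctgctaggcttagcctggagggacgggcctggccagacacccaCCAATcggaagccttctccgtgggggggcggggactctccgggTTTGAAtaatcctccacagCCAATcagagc
Plk1 (chr7:122159185-122159434, plus strand): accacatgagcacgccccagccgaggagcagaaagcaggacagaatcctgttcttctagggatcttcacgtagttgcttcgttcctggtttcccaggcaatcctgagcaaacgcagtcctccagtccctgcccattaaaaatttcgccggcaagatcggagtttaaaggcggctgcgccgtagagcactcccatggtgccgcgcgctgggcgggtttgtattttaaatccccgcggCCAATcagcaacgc
In Ube2c, Cks1b and Hmgb2 a CHR core lies close to the start, as the last element of the window in Ube2c and Cks1b and the last but a CCAAT in Hmgb2. A match in letters is not a measured site, and no binding was assayed.

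Replication genes fell in part. Of 19 tested members of 35, 7 fell (against 7.02% of all genes) and none rose. Of the 19, 14 would have passed the filter without the 6 Gy libraries of 24 h, so the filter favours genes that are high there. Of the 16 below the filter, 15 had a lower and 1 a higher mean at 15 Gy. Dut, which removes dUTP before it enters DNA, had 0.327, 0.437 and 0.578 CPM at 15 Gy, against 5.37, 2.15 and 3.19 CPM at 6 Gy, log2 fold change -2.99 (SE 0.56, adjusted p = 0.0022), and passed the test under each of the 17 alternatives. Mcm5, a subunit of the replicative helicase, had 0.64, 0.501 and 1.08 CPM at 15 Gy, against 7, 2.1 and 2.99 CPM at 6 Gy, log2 fold change -2.44 (SE 0.52, adjusted p = 0.00473). In both genes the libraries of the doses did not overlap. Mcm3 (log2 fold change -2.11) and Uhrf1, which keeps DNA methylation through replication (log2 fold change -2.49), were called without each of the 6 libraries too. The count of 7 was 4 without the 2 doubtful libraries and 4 without 15 Gy replicate 1, and 1 with only the compared libraries in the fit, where Mcm5, Mcm3 and Uhrf1 did not pass. Of 11 DNA repair genes tested 2 fell (against 7.02% of all genes) and none rose, among them Parp1, the sensor of DNA breaks (log2 fold change -1.61, adjusted p = 0.00488). That count of 2 was 1 without 15 Gy replicates 1 or 3 or 6 Gy replicates 1 or 3, 4 without 15 Gy replicate 2 and 0 with only the compared libraries. Of the 11 repair genes, 8 would have passed the filter without the 6 Gy libraries of 24 h.

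**Figure D1:**
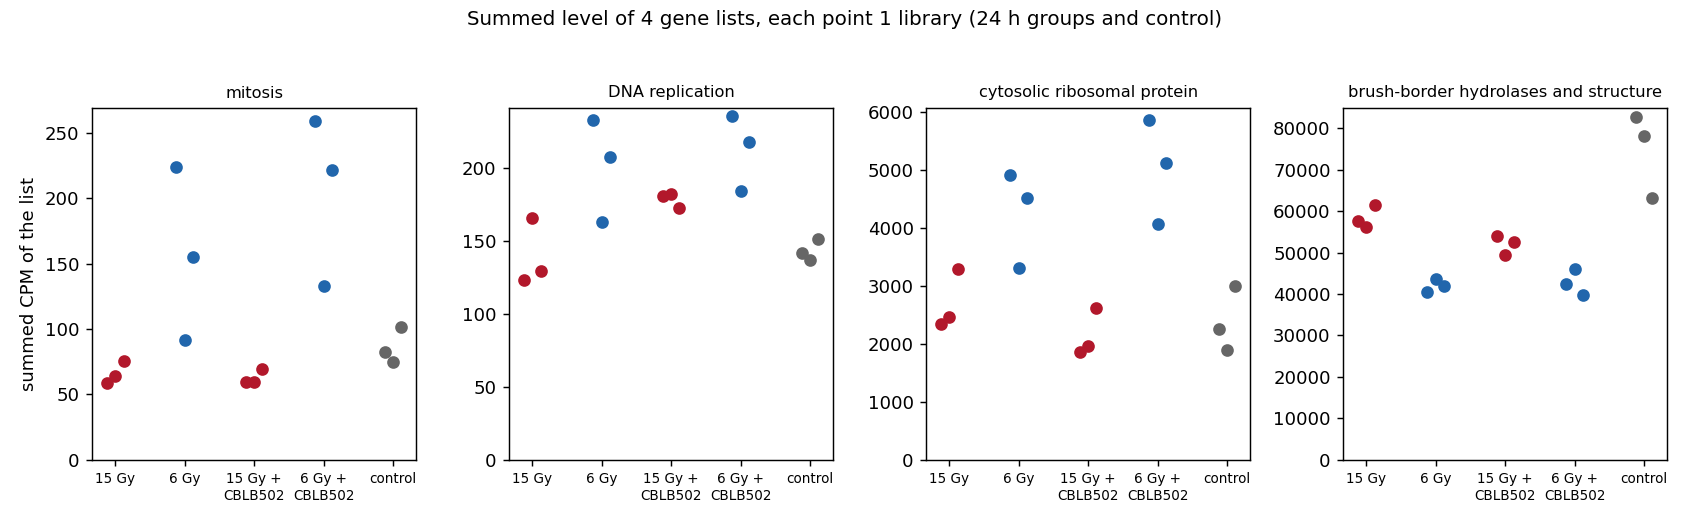
Summed CPM of 4 gene lists (vertical axis, from 0) in each library of the 24 h groups and of the control group, 1 point a library. The 15 Gy libraries sum to 58.8 to 75.2 CPM for mitosis, against 91.5 to 224 CPM at 6 Gy, and lie above the 6 Gy libraries for the brush-border list.

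The stem cell list moved less uniformly. Of 18 tested members of 29 in the table, 3 fell, 1 rose and 14 did not pass. Of the 18, 15 would have passed the filter without the 6 Gy libraries of 24 h. Olfm4, a marker of crypt base stem cells, had 0.0915, 0.72 and 1.9 CPM at 15 Gy, against 29, 3.03 and 12.8 CPM at 6 Gy, log2 fold change -4.05 (SE 1.35, adjusted p = 0.0463). Ascl2, a transcription factor of the stem cells, had no count in 15 Gy replicates 1 and 2 and 0.0609 CPM in replicate 3, against 1.68, 0.146 and 0.724 CPM at 6 Gy (adjusted p = 0.0372). Slc12a2, the chloride entry transporter of crypt cells, had 2.14, 3.61 and 3.59 CPM at 15 Gy, against 24.2, 4.53 and 13.9 CPM at 6 Gy, log2 fold change -2.19 (SE 0.64, adjusted p = 0.0265). These 3 genes were all lowest in 6 Gy replicate 2 within the 6 Gy group, and each call was lost without at least 4 of the 6 libraries in turn (adjusted p up to 0.168 for Olfm4, 0.132 for Ascl2 and 0.148 for Slc12a2), and none of the list was called lower without the 2 doubtful libraries. The count of 3 was 0 without 15 Gy replicate 1 or 6 Gy replicates 1 or 3 and 1 without 15 Gy replicates 2 or 3. Lgr5, the marker that defines these stem cells, stayed below the filter at 0.157, 0.347 and 0.32 CPM at 15 Gy and 1.55, 0.134 and 0.457 CPM at 6 Gy, so the groups overlapped. Axin2, a target of Wnt signalling, was called in the opposite direction with 73.4, 11.5 and 17.9 CPM at 15 Gy, against 15.9, 9.83 and 7.41 CPM at 6 Gy, log2 fold change 1.63 (SE 0.53, adjusted p = 0.0402), but without 15 Gy replicate 1 its log2 fold change was 0.41 (adjusted p = 0.599).

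Most p53 targets did not pass the test between the doses, which with 3 libraries a group does not show that they were equal. Of 35 tested members of 44, 5 rose (against 8.59% of all genes), 1 fell (against 7.02%) and 29 did not pass. The median log2 fold change was 0.22, and -0.18 on the FPKM scale, 0.168 above the median of all genes there. Cdkn1a, the cell cycle inhibitor p21, had 358, 266 and 289.6 CPM at 15 Gy, against 209, 247 and 252 CPM at 6 Gy, log2 fold change 0.37 (SE 0.18, adjusted p = 0.172). Ccng1 had 118, 103 and 102 CPM at 15 Gy, against 88.5, 80.5 and 86.6 CPM at 6 Gy, log2 fold change 0.34 (SE 0.15, adjusted p = 0.124), and Mdm2, the ubiquitin ligase that limits p53, had 45.6, 51.2 and 67.3 CPM at 15 Gy, against 46, 46.3 and 41.8 CPM at 6 Gy, log2 fold change 0.29 (SE 0.17, adjusted p = 0.26). For Cdkn1a and Ccng1 the 15 Gy libraries all lay above the 6 Gy ones, and for Mdm2 the groups overlapped, with none of the 3 past the test and each negative on the FPKM scale. Among those that rose, Sesn1, a stress-induced inhibitor of growth signalling, had 149, 124 and 103 CPM at 15 Gy, against 78.8, 73.2 and 73 CPM at 6 Gy, log2 fold change 0.74 (SE 0.19, adjusted p = 0.0117), and Plk2, a kinase, had a log2 fold change of 1.01 (adjusted p = 0.0194). The count of 5 was 1 without the 2 doubtful libraries, without 15 Gy replicate 1 and without 15 Gy replicate 3, and 2 without 6 Gy replicates 1 or 3. The call of Sesn1 was lost without 15 Gy replicate 1 (adjusted p = 0.0716) and that of Plk2 without 15 Gy replicates 1 or 3 or 6 Gy replicates 1 or 3 (up to 0.0869). Of 22 genes of apoptosis tested 2 rose and none fell, Casp8, the initiator caspase of death receptors, with 240.3, 129.7 and 154 CPM at 15 Gy, against 81.5, 92 and 95.4 CPM at 6 Gy, log2 fold change 0.96 (SE 0.21, adjusted p = 0.00527), and Bid (log2 fold change 0.94, adjusted p = 0.0421), whose call was lost without each of 15 Gy replicates 1 and 3 and 6 Gy replicates 1, 2 and 3 (up to 0.199).

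Some ribosomal protein genes fell at 15 Gy. All 52 cytosolic members were tested, and 20 fell (against 7.02% of all genes), none rose and 32 did not pass, with a median of -0.67 that was -1.05 on the FPKM scale, 0.704 below the median of all genes there. Rps2 had 21.9, 28.2 and 33.4 CPM at 15 Gy, against 98.3, 51.8 and 76.5 CPM at 6 Gy, log2 fold change -1.44 (SE 0.33, adjusted p = 0.00699), and held under each of the 17 alternatives. Rps16 had 45.9, 44.4 and 65 CPM at 15 Gy, against 114, 82.3 and 109 CPM at 6 Gy, log2 fold change -0.97 (SE 0.22, adjusted p = 0.00628), and Rpl32 had a log2 fold change of -1.08 (adjusted p = 0.0081). The libraries of the doses did not overlap in Rps2 or Rps16, and 6 Gy replicate 2 was the lowest of its group in both. Summed over the 52 genes the level was 2343, 2457 and 3288 CPM at 15 Gy and 4909, 3299 and 4508 CPM at 6 Gy. The count of 20 was 6 without the 2 doubtful libraries, 6 without 15 Gy replicate 1, 11 without 15 Gy replicate 2, 6 without 6 Gy replicate 1 and 9 without 6 Gy replicate 3. Many of these genes have processed pseudogenes, and how the authors' counting treated reads that match several copies is not given in the sources used here. Ptma, a histone-binding protein of growing cells, fell too, with 18.6, 33.3 and 32.1 CPM at 15 Gy, against 161, 64 and 117 CPM at 6 Gy, log2 fold change -2.03 (SE 0.36, adjusted p = 0.00163).

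Some genes of the villus enterocyte rose at 15 Gy. Of 28 brush-border genes tested of 29, 14 rose (against 8.59% of all genes), none fell and 14 did not pass. The microvillar cadherin Cdhr2 had 3524, 3351 and 3543 CPM at 15 Gy, against 2140, 2373 and 2110 CPM at 6 Gy, log2 fold change 0.65 (SE 0.14, adjusted p = 0.00576), and the protease meprin beta, Mep1b, had 2478, 1880 and 2629 CPM at 15 Gy, against 1236, 1554 and 1285 CPM at 6 Gy, log2 fold change 0.78 (SE 0.17, adjusted p = 0.00488). In both genes each 15 Gy library exceeded each 6 Gy library. The largest fitted rise of the list, that of the phospholipase Plb1, came with a wide spread. Its levels were 146.6, 0.887 and 14.1 CPM at 15 Gy, against 0.162, 0.279 and 0.203 CPM at 6 Gy (log2 fold change 7.95, SE 2.27, adjusted p = 0.0235), and its call was lost without 15 Gy replicate 1 or any one 6 Gy library (adjusted p up to 0.125). The brush-border list summed to 56160 to 61380 CPM at 15 Gy and 40420 to 43600 CPM at 6 Gy, with both doses below the control libraries. The disaccharidases did not pass, since Lct, lactase, had 3030, 3313 and 3107 CPM at 15 Gy, against 2579, 3296 and 2433 CPM at 6 Gy, and Sis, sucrase-isomaltase, had 3426, 2915 and 3446 CPM at 15 Gy, against 3285, 2511 and 1850 CPM at 6 Gy, and in both the groups overlapped (adjusted p = 0.577 and 0.494). On the FPKM scale the median of the brush-border genes was 0.00595, which is 0.352 above the median of all genes, and 4 were called higher. The count of 14 was 7 without the 2 doubtful libraries, 6 without 15 Gy replicate 1, without 15 Gy replicate 3 and without 6 Gy replicate 1, and 7 without 6 Gy replicate 3, while without 15 Gy replicate 2 it was 17.

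Some genes of lipid uptake and export rose too. Of 29 tested of 30, 12 rose, 1 fell and 16 did not pass. Apoa1, the main protein of high-density lipoprotein, had 32330, 24760 and 34340 CPM at 15 Gy, against 9983, 13910 and 12740 CPM at 6 Gy, log2 fold change 1.32 (SE 0.24, adjusted p = 0.00205). Pla2g12b, a secreted protein needed for lipoprotein assembly, had 139.5, 104 and 132 CPM at 15 Gy, against 48.4, 66 and 58 CPM at 6 Gy, log2 fold change 1.12 (SE 0.19, adjusted p = 0.00125). Both kept their call under each of the 17 alternatives and no library of one dose reached the other. Mogat2, which rebuilds triglyceride in the enterocyte, had 634, 543 and 659.6 CPM at 15 Gy, against 435, 456 and 436 CPM at 6 Gy, log2 fold change 0.47 (SE 0.10, adjusted p = 0.00604). Abca1, which exports cholesterol, had 131, 79.9 and 87.5 CPM at 15 Gy, against 13.6, 47.1 and 21.1 CPM at 6 Gy, log2 fold change 1.87 (SE 0.42, adjusted p = 0.00666). The gene that fell, Clps, encodes the pancreatic cofactor colipase (log2 fold change -3.24, adjusted p = 0.00897), its groups overlapped, and its call was lost without 15 Gy replicate 1 or 6 Gy replicate 2 (up to 0.467). The median of the list was 0.54, and 0.0374 on the FPKM scale, 0.383 above the median of all genes there. The count of 12 was 6 without the 2 doubtful libraries and without 6 Gy replicate 1, and 7 without 15 Gy replicates 1 or 3 or 6 Gy replicate 3.

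Transporters of bile acids and amino acids held some of the steadiest rises. Slc51b, a subunit of the transporter that passes bile acids from ileal enterocytes to blood, had 181, 136 and 156 CPM at 15 Gy, against 46.9, 67.2 and 55.9 CPM at 6 Gy, log2 fold change 1.48 (SE 0.22, adjusted p = 0.000421). Its partner Slc51a had 307, 224 and 411 CPM at 15 Gy, against 131, 225 and 162 CPM at 6 Gy, log2 fold change 0.86 (SE 0.25, adjusted p = 0.0259), where 15 Gy replicate 2 lay just below 6 Gy replicate 2. The call of Slc51a was lost without 15 Gy replicates 1 or 3 or 6 Gy replicates 1 or 3 (adjusted p up to 0.151), and that of Slc51b was lost under none of the 17 alternatives. Of 12 ileal genes tested 5 rose and none fell, a count that was 3 without 15 Gy replicates 1 or 3 or 6 Gy replicates 1 or 3. Tcn2, the vitamin B12 carrier, was among them with a log2 fold change of 0.68 (adjusted p = 0.0046). Slc3a1, the heavy chain of the cystine transporter, had 598, 389 and 610.0 CPM at 15 Gy, against 254, 266 and 225 CPM at 6 Gy, log2 fold change 1.10 (SE 0.23, adjusted p = 0.00398), and its light chain Slc7a9 had a log2 fold change of 0.61 (adjusted p = 0.00924). They were 2 of 5 transporters that rose among 23 tested for sugars, amino acids and peptides, none of which fell. That count was 3 without 15 Gy replicate 1 and 2 without 15 Gy replicate 3 or 6 Gy replicates 1 or 3. Markers of the upper small intestine split, with 3 of 20 higher and 2 lower. The iron oxidase Heph had 564, 512 and 502 CPM at 15 Gy, against 345, 345 and 331 CPM at 6 Gy, log2 fold change 0.63 (SE 0.13, adjusted p = 0.00344), and the homeobox gene Isx had a log2 fold change of 0.76 (adjusted p = 0.00651), both higher, while Cck and Tff2 were lower. The median log2 fold change was -0.22 for the upper and 0.82 for the ileal list, and -0.62 and 0.31 on the FPKM scale, 0.27 below and 0.652 above the median of all genes there. As the segment is not given, its part in these values was not tested. Ces2e, an intestinal carboxylesterase, rose with one of the smallest errors, 2061, 2199 and 2160 CPM at 15 Gy, against 1074, 1301 and 1138 CPM at 6 Gy, log2 fold change 0.87 (SE 0.13, adjusted p = 0.000466), and Cyp3a44, a cytochrome P450, had 4.87, 4.55 and 2.89 CPM at 15 Gy, against 0.7, 1.15 and 0.877 CPM at 6 Gy, log2 fold change 2.17 (SE 0.48, adjusted p = 0.00616).

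**Figure D2:**
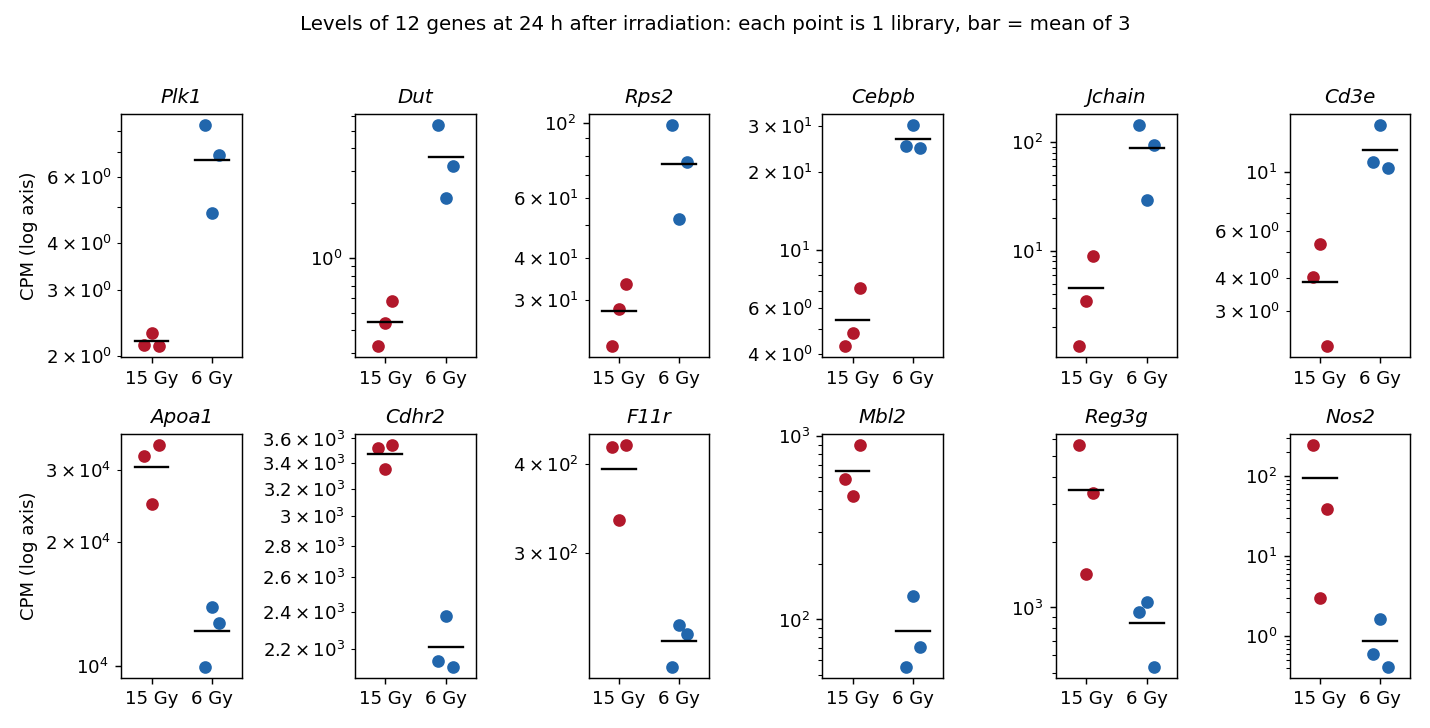
CPM (vertical log axis) of 12 genes in each 24 h library, 15 Gy left and 6 Gy right, with 1 point a library and a bar at the mean of 3. In the upper row the 15 Gy libraries lie below and in the lower row above the 6 Gy libraries, and Nos2 spreads from 3.02 to 243 CPM within the 15 Gy group.

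Some genes that join epithelial cells rose at 15 Gy as well. Of 26 tested of 28 genes of tight junctions and adhesion, 11 rose (against 8.59% of all genes), none fell and 15 did not pass, and every one of the 26 had a positive log2 fold change on TMM-scaled counts. F11r, the junctional adhesion molecule A, had 422, 334 and 424 CPM at 15 Gy, against 208, 238 and 231 CPM at 6 Gy, log2 fold change 0.80 (SE 0.14, adjusted p = 0.00125). The intestinal cadherin Cdh17 had 2305, 2193 and 2338 CPM at 15 Gy, against 1451, 1402 and 1399 CPM at 6 Gy, log2 fold change 0.68 (SE 0.12, adjusted p = 0.0014). The desmosomal cadherin Dsg2 had 513, 307 and 547 CPM at 15 Gy, against 221, 196 and 177 CPM at 6 Gy, log2 fold change 1.20 (SE 0.22, adjusted p = 0.0022), and its partner Dsc2 had 338, 247 and 338 CPM at 15 Gy, against 164, 172 and 148 CPM at 6 Gy, log2 fold change 0.93 (SE 0.18, adjusted p = 0.0027). In all 4 genes the groups were apart, and F11r and Dsc2 passed under each of the 17 alternatives. The median was 0.59, and 0.149 on the FPKM scale, 0.495 above the median of all genes there. The count of 11 was 6 without the 2 doubtful libraries and 7 without 15 Gy replicates 1 or 3 or 6 Gy replicates 1 or 3. Of 12 genes of the epidermal growth factor family tested 3 rose, among them the receptor Egfr with 69.9, 31.6 and 56.8 CPM at 15 Gy, against 21.6, 15.9 and 19.3 CPM at 6 Gy, log2 fold change 1.48 (SE 0.36, adjusted p = 0.0107), lost without 15 Gy replicate 1 (adjusted p = 0.061). That count of 3 was 0 without the 2 doubtful libraries and without 15 Gy replicate 1, and 1 without 6 Gy replicates 1 or 3. Of 21 genes that mark regenerating, fetal-like epithelium 3 rose and 1 fell, and 1 rose without 15 Gy replicates 1 or 3 or 6 Gy replicate 2. Anxa2, a membrane-binding protein, had 1552, 963 and 1432 CPM at 15 Gy, against 588, 656 and 671 CPM at 6 Gy, log2 fold change 1.04 (SE 0.18, adjusted p = 0.00156), while Clu, which marks revival stem cells, had 3.88, 1.75 and 4.12 CPM at 15 Gy, against 2.25, 6.92 and 2.79 CPM at 6 Gy, and the groups overlapped (adjusted p = 0.811).

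Defence genes of the epithelium gave large rises with a wide spread between the 15 Gy libraries. Of 24 tested of 30, 9 rose, none fell and 15 did not pass. Nos2, the inducible nitric oxide synthase, had 243, 3.02 and 39 CPM at 15 Gy, against 0.606, 1.63 and 0.419 CPM at 6 Gy, log2 fold change 6.74 (SE 1.59, adjusted p = 0.00882). Duox2, the oxidase that releases hydrogen peroxide into the lumen, had 153, 5.23 and 101 CPM at 15 Gy, against 4.35, 2.03 and 1.22 CPM at 6 Gy, log2 fold change 5.10 (SE 1.12, adjusted p = 0.0059). In both, 15 Gy replicate 2 lay close to the 6 Gy libraries and replicate 1 was the highest. Reg3g, a lectin that kills Gram-positive bacteria, had 5620, 1424 and 3379 CPM at 15 Gy, against 948, 1056 and 533 CPM at 6 Gy, log2 fold change 2.04 (SE 0.47, adjusted p = 0.00728), and its relative Reg3b had 8544, 2844 and 4713 CPM at 15 Gy, against 2485, 2643 and 1511 CPM at 6 Gy, which did not pass (log2 fold change 1.28, adjusted p = 0.0519). Saa1, an acute-phase protein, had 29.8, 0.553 and 9.42 CPM at 15 Gy, against 0.0539, 0.0486 and 0 CPM at 6 Gy, where a fitted fold change would depend on the prior count. Steadier members were Mbl2, a lectin that starts complement activation, with 582, 470.0 and 892 CPM at 15 Gy, against 55.3, 134 and 70.8 CPM at 6 Gy, log2 fold change 2.90 (SE 0.61, adjusted p = 0.00474), and the complement protease Cfb, with 281, 207 and 234 CPM at 15 Gy, against 123, 164 and 136 CPM at 6 Gy, log2 fold change 0.78 (SE 0.17, adjusted p = 0.00616). Mbl2 passed under each of the 17 alternatives. Without 15 Gy replicate 1 the adjusted p was 0.0542 for Nos2 and 0.056 for Reg3g, and without the 2 doubtful libraries 2 of the list were called. The count of 9 was 5 without 15 Gy replicate 1. Outside the list, the T cell chemokine Ccl25 of the small intestine had 709.5, 802 and 644 CPM at 15 Gy, against 234, 239 and 321 CPM at 6 Gy, log2 fold change 1.44 (SE 0.24, adjusted p = 0.00125), and Cxcl16, a chemokine on the enterocyte surface, had 56.5, 36.3 and 49.7 CPM at 15 Gy, against 20.8, 30.4 and 19.8 CPM at 6 Gy, log2 fold change 1.01 (SE 0.22, adjusted p = 0.00551).

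Secretory cells showed few called genes. Of 20 goblet cell genes tested 1 rose (Guca2a) and 1 fell (Gfi1). The call of Guca2a was lost without 15 Gy replicates 1 or 3 or 6 Gy replicates 1 or 3 (adjusted p up to 0.083). Muc2, the main mucin, had 1132, 780.3 and 1012 CPM at 15 Gy, against 906, 992 and 891 CPM at 6 Gy (adjusted p = 0.923), with overlapping groups. Of 20 Paneth cell genes tested 1 rose and none fell. That gene, Guca2b or uroguanylin, is made by other cells of the epithelium too and had 1657, 1933 and 2324 CPM at 15 Gy, against 747, 916 and 787 CPM at 6 Gy, log2 fold change 1.27 (SE 0.28, adjusted p = 0.00616). Lyz1, the Paneth cell lysozyme, had 24.1, 65.9 and 127 CPM at 15 Gy, against 324, 61.6 and 144 CPM at 6 Gy (adjusted p = 0.278), a wide spread in both groups. The median log2 fold change of the Paneth list was -1.28, and -1.31 on the FPKM scale, 0.964 below the median of all genes there, and the alpha-defensins in it are near-identical copies among which reads may be split. Of 15 enteroendocrine genes tested 3 fell and 1 rose. The transcription factor Neurod1 had a log2 fold change of -0.95 (adjusted p = 0.0205) and the hormone genes Gcg and Cck had log2 fold changes of -1.46 and -1.54 (adjusted p = 0.0205 and 0.028), while Pyy had 3.63, 0.193 and 2.8 CPM at 15 Gy, against 0.215, 0.376 and 0.203 CPM at 6 Gy with overlapping groups (log2 fold change 3.05, adjusted p = 0.0268). All 4 calls were lost without 15 Gy replicate 1, with adjusted p of 0.0768 for Neurod1, 0.0774 for Gcg, 0.127 for Cck and 0.109 for Pyy. None of 14 tuft cell genes passed.

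Some genes of immune cells fell at 15 Gy and none of the T cell, B cell or myeloid lists rose. Of 25 genes of T cells and intraepithelial lymphocytes tested of 37 in the table, 6 fell and none rose, and all 25 had a negative log2 fold change. Of the 25, 22 would have passed the filter without the 6 Gy libraries of 24 h. Cd3e, a chain of the T cell receptor complex, had 4.04, 5.35 and 2.21 CPM at 15 Gy, against 11, 15.1 and 10.4 CPM at 6 Gy, log2 fold change -1.65 (SE 0.42, adjusted p = 0.0132), and the kinase Lck had 4.23, 3.9 and 1.96 CPM at 15 Gy, against 9.67, 14.5 and 9.54 CPM at 6 Gy, log2 fold change -1.74 (SE 0.48, adjusted p = 0.0194). The natural killer receptor chain Klrd1 had 1.28, 2.38 and 1.51 CPM at 15 Gy, against 5.35, 7.45 and 3.89 CPM at 6 Gy, log2 fold change -1.69 (SE 0.41, adjusted p = 0.00972). In these 3 genes the groups did not overlap. None of the list was called without the 2 doubtful libraries, and the count of 6 was 2 without 15 Gy replicate 1, 1 without 15 Gy replicate 3, 4 without 6 Gy replicate 1 and 3 without 6 Gy replicate 2, while it was 9 without 15 Gy replicate 2. The call of Cd3e was lost without 15 Gy replicate 3 (adjusted p = 0.0615), that of Lck without 15 Gy replicate 3 or 6 Gy replicate 2 (0.0804 and 0.0568) and that of Klrd1 without 15 Gy replicate 1 (0.0565). The list summed to 207.5 to 386 CPM at 15 Gy and 446 to 758 CPM at 6 Gy. Of 10 genes of B and plasma cells tested of 24, 4 fell and 6 did not pass, 3 of them with a positive log2 fold change. Of the 10, 8 would have passed the filter without the 6 Gy libraries of 24 h. The sum of the B and plasma cell list was not lower, at 4837 to 6337 CPM (median 6137) at 15 Gy and 4237 to 5520 CPM (median 4373) at 6 Gy. The genes that fell were a small part of that sum, which rests on other members and does not follow them. Igha and Igkc, the highest of those that fell, averaged 33.0 and 33.8 CPM at 15 Gy and 421 and 280 CPM at 6 Gy. Jchain, which joins secreted antibodies, had 1.32, 3.43 and 8.95 CPM at 15 Gy, against 143, 29.4 and 94.1 CPM at 6 Gy, log2 fold change -4.28 (SE 1.10, adjusted p = 0.014), and the antibody gene Igha had 5.64, 22.3 and 70.9 CPM at 15 Gy, against 610.2, 146 and 507 CPM at 6 Gy, log2 fold change -3.68 (SE 1.11, adjusted p = 0.0302). Within the 6 Gy group replicate 2 was the lowest for both. The count of 4 was 1 without the 2 doubtful libraries, without 15 Gy replicates 1 or 2 and without 6 Gy replicates 1 or 3. The call of Jchain was lost without 15 Gy replicate 1 (adjusted p = 0.0688) and that of Igha without 15 Gy replicates 1 or 2 or 6 Gy replicates 1 or 3 (up to 0.115). Of 15 myeloid genes, 12 of which would have passed the filter without the 6 Gy libraries of 24 h, 2 fell. Among them was Itgax, a marker of dendritic cells and intestinal macrophages, with 2.44, 2.48 and 1.64 CPM at 15 Gy, against 8.04, 6.48 and 5.83 CPM at 6 Gy, log2 fold change -1.63 (SE 0.39, adjusted p = 0.00956). Itgax passed under each of the 17 alternatives. Tgfb1 had 0.836, 1.71 and 1.02 CPM at 15 Gy, against 4.62, 4.14 and 3.25 CPM at 6 Gy, log2 fold change -1.75 (SE 0.33, adjusted p = 0.00238). Of 55 interferon-stimulated genes 2 fell and none rose (against 7.02% of all genes lower), and 11 had a positive log2 fold change. Their median was -0.53, and -0.73 on the FPKM scale, 0.383 below the median of all genes there. With CBLB502 at both doses the median of these 55 was 0.48.

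**Figure D3:**
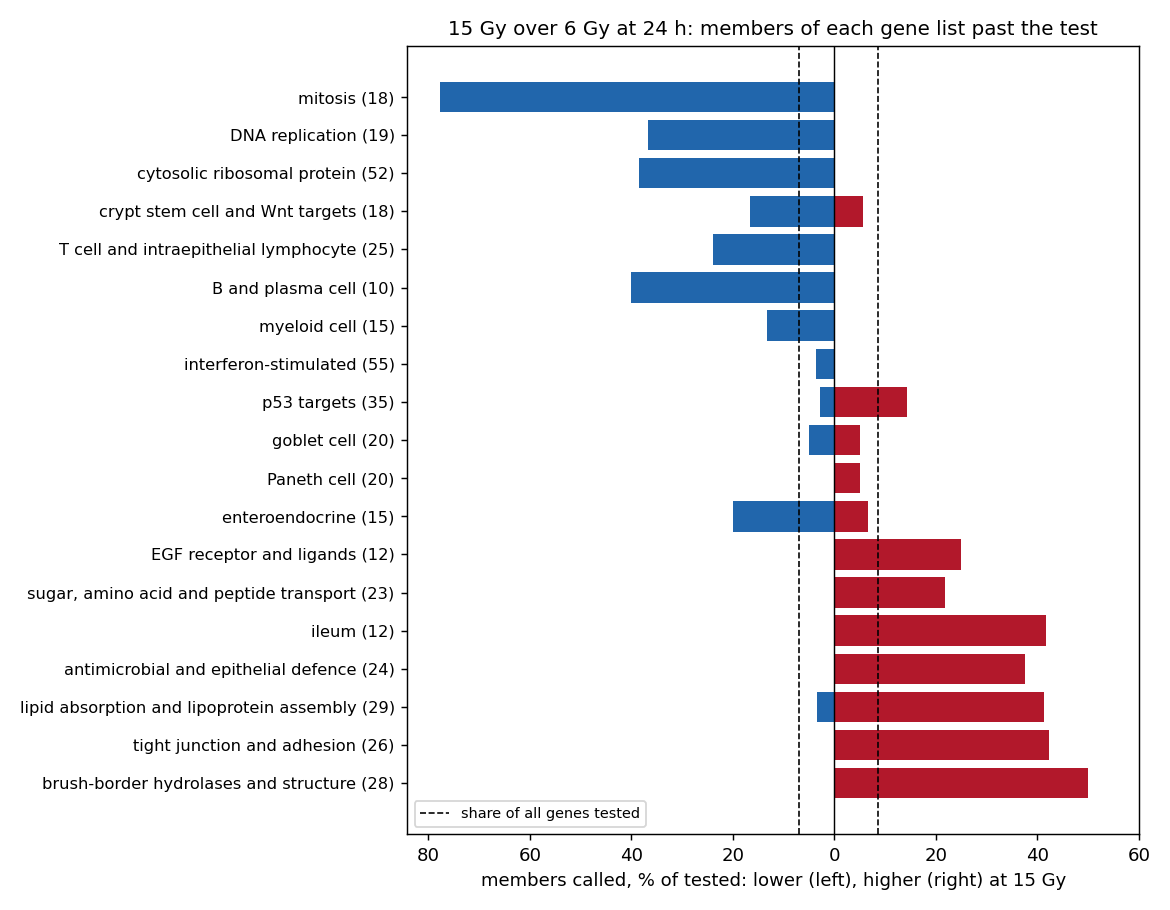
Share of the tested members of 19 gene lists (numbers of members in brackets) called lower (bars to the left) or higher (bars to the right) at 15 Gy, in percent, with dashed lines at the shares of all genes, 7.02% and 8.59%. Among the lists drawn, which leave out the exocrine pancreas (26 of 31 lower), mitosis has the longest bar to the left with 14 of 18 and brush border the longest to the right with 14 of 28.

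Markers of other tissues gave mixed values. Of 31 tested genes of the exocrine pancreas, of 38 listed, 26 were called lower at 15 Gy, and 8 of the 31 would have passed the filter without the 6 Gy libraries of 24 h. The sum of the 38 was 1094, 851 and 1354 CPM at 15 Gy and 653, 12790 and 759 CPM at 6 Gy, with 26, 12 and 7 of the 38 genes at 0 at 15 Gy and 7, 0 and 8 at 6 Gy. At 15 Gy the sum rests on members that were not called, since the highest mean there among the 26 called was 10.9 CPM (Rnase1). Cela1, an elastase, had 4.18, 5.28 and 5.78 CPM at 15 Gy, against 9.5, 476 and 10.1 CPM at 6 Gy, and without 6 Gy replicate 2 its adjusted p was 0.176 and 7 of the list were called. The number called was 14 without 15 Gy replicate 1, 1 without the 2 doubtful libraries and 0 with only the compared libraries in the fit. Of 7 tested genes of fibroblasts and matrix, of 33 listed, 5 fell and 1 rose, but 1 of the 7 would have passed the filter without the 6 Gy libraries of 24 h, so the filter favours genes that are high there. Col1a1, the main chain of fibrous collagen, had 0.196, 0.399 and 0 CPM at 15 Gy, against 22.2, 27.1 and 16.4 CPM at 6 Gy, log2 fold change -6.75 (SE 1.31, adjusted p = 0.00292), and was called under each of the 17 alternatives. It was at 0.0845 CPM on average in the 6 Gy libraries of 6 h. The list's sum overlapped, at 46.6 to 179 CPM at 15 Gy and 94.4 to 131 CPM at 6 Gy, and Gsn, an actin-severing protein that epithelium makes too, was the member that rose (log2 fold change 2.29, adjusted p = 0.0193). The call of Gsn was lost without 15 Gy replicates 1 or 3 or 6 Gy replicates 1, 2 or 3 (adjusted p up to 0.0834). The count of 5 that fell was 1 without the 2 doubtful libraries, without 15 Gy replicates 1 or 3 and without 6 Gy replicate 1, and 2 without 6 Gy replicate 3. Of 13 smooth muscle genes 1 fell, the creatine kinase Ckb (log2 fold change -1.02, adjusted p = 0.00604), and the list summed to 589 to 820 CPM at 15 Gy and 881 to 1122 CPM at 6 Gy. Of the 13, 7 would have passed the filter without the 6 Gy libraries of 24 h. One gene of enteric nerve and glia and 8 of endothelium, fat, mesothelium and blood were tested and none passed. The part of these tissues in the differences of the epithelial and immune groups was not tested.

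Of 13 transcripts of the mitochondrial genome, 3 were called higher at 15 Gy and none lower. mt-Co3, a subunit of cytochrome oxidase, had 10320, 12680 and 19850 CPM at 15 Gy, against 6823, 6618 and 4588 CPM at 6 Gy, log2 fold change 1.25 (SE 0.39, adjusted p = 0.0342), and mt-Atp6 had 10940, 14130 and 22040 CPM at 15 Gy, against 1347, 1361 and 4929 CPM at 6 Gy, log2 fold change 2.62 (SE 0.83, adjusted p = 0.0368). For mt-Atp6 the third library of each group was the highest. Mitochondrial transcripts took 13.4% to 22.3% of the counts at 15 Gy and 10.8% to 13.8% at 6 Gy. None of the 3 calls held without 15 Gy replicate 3 or 6 Gy replicates 1 or 2 (without 6 Gy replicate 1, adjusted p = 0.077 for mt-Co3, 0.142 for mt-Atp6 and 0.111 for mt-Co2). Of 37 nuclear genes of the respiratory chain 2 rose and none fell, Cox6b1 (log2 fold change 0.61, adjusted p = 0.00124) and Cox6a1 (log2 fold change 0.53, adjusted p = 0.00617). The median log2 fold change of the mitochondrial list was 0.934, and 0.43 on the FPKM scale, 0.776 above the median of all genes there. That of the nuclear list was 0.0151, and -0.418 on the FPKM scale, 0.072 below the median of all genes there, and its sign turned in 6 settings.

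Other lists had small counts of called members, to be set against 8.59% of all genes called higher and 7.02% called lower. Of 25 genes of sterol and fatty acid synthesis 1 rose and 2 fell. Of 24 of fat oxidation 2 rose and 1 fell. Of 46 of xenobiotic metabolism 5 rose and 1 fell, and of 23 targets of the oxidative stress factor NRF2 1 rose and 1 fell. Of 15 genes induced by glucocorticoids or metals 3 rose, of 23 of ER stress 2 rose and 1 fell, of 18 clock genes 2 rose and of 26 genes of antigen presentation 3 rose. Of 28 chemokine and cytokine genes 5 rose and 4 fell, and of 10 colonic genes 3 rose. Among these lists the colonic, glucocorticoid and chemokine genes lay furthest above the share of all genes called higher. The chemokine genes lay above the share called lower too. These counts were small and unsteady, since without 15 Gy replicate 3 none of the antigen presentation and none of the glucocorticoid genes passed, and without 15 Gy replicate 1 the chemokine genes called were 2 higher and 1 lower and 1 colonic and 3 xenobiotic genes were called higher. Without 15 Gy replicate 2, 9 xenobiotic genes were called lower.

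By size, the 12 largest rises among genes with a mean FPKM of 5 or more at 15 Gy and groups that did not overlap, other than the gene types and lists set out in the methods, were those of Nos2, Duox2, Map3k6, Slc34a2, mt-Tg, Tmigd1, mt-Td, Mbl2, Ocm, Nbl1, mt-Atp6 and Slc52a3, with log2 fold changes from 6.74 to 2.59. Slc34a2, a phosphate transporter of epithelia, had 1646, 109.5 and 582 CPM at 15 Gy, against 31.6, 80.4 and 58.3 CPM at 6 Gy, log2 fold change 3.78 (SE 1.22, adjusted p = 0.04). Tmigd1, an adhesion protein of the brush border, had 129, 47.6 and 258 CPM at 15 Gy, against 10.1, 18.1 and 9.53 CPM at 6 Gy, log2 fold change 3.52 (SE 0.77, adjusted p = 0.00571). Tmigd1 and the calcium-binding protein gene Ocm (log2 fold change 2.82, adjusted p = 0.00622) held under each of the 17 alternatives. Saa1 and Plb1, with larger fitted changes, stayed under that limit (mean FPKM 4.69 and 4.14 at 15 Gy). The mitochondrial transfer RNA genes mt-Tg and mt-Td passed it and stayed under 3 CPM in each of the 6 libraries. The call of Slc34a2 was lost without 15 Gy replicates 1 or 3 or 6 Gy replicates 1, 2 or 3 (adjusted p up to 0.185), that of Map3k6 without 15 Gy replicate 1 or 6 Gy replicates 1 or 3 (up to 0.0725), that of Nbl1 without the same 3 libraries (up to 0.0602) and that of mt-Atp6 without 15 Gy replicates 1 or 3 or 6 Gy replicates 1 or 2 (up to 0.142). Nos2 lost its call without 15 Gy replicate 1 (0.0542).

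The 12 largest falls chosen the same way were those of Tff2, Ugt1a9, Snord12, Jchain, Olfm4, Adamdec1, Lrrc47, Stmn1, Ly6e, Cebpb, H2-Q5 and Ptma. Cebpb, a transcription factor of inflammation and metabolism, had 4.27, 4.81 and 7.14 CPM at 15 Gy, against 25.1, 30.2 and 24.6 CPM at 6 Gy, log2 fold change -2.30 (SE 0.24, adjusted p = 1.62e-05). Its levels formed 2 tight groups, it was called under each of the 17 alternatives, and its adjusted p was the smallest of the 24 genes. Tff2, a trefoil peptide of stomach and duodenum, had no count at 15 Gy and 0.0943, 17.6 and 0.203 CPM at 6 Gy. Against a floor of 3 counts over the group it was at least 436-fold lower at 15 Gy, and its level rests on 6 Gy replicate 2, the library with pancreatic RNA, and without that library its adjusted p was 0.0785. Its call was also lost without 15 Gy replicates 1 or 3 (0.0798 and 0.0664). Ugt1a9, a glucuronosyltransferase, had 0.614, 2.92 and 0 CPM at 15 Gy, against 109, 86.9 and 101 CPM at 6 Gy, log2 fold change -6.38 (SE 1.63, adjusted p = 0.0135). The genes of the Ugt1a cluster share exons, so reads may be split among them, and without 15 Gy replicate 1 its adjusted p was 0.0657. Lrrc47 had 4.31, 4.85 and 3.62 CPM at 15 Gy, against 25.1, 24 and 25 CPM at 6 Gy, log2 fold change -2.54 (SE 0.53, adjusted p = 0.00434). Adamdec1, a protease of gut stroma and macrophages, had 0.353, 1.61 and 3 CPM at 15 Gy, against 14.7, 3.02 and 13.1 CPM at 6 Gy, log2 fold change -2.64 (SE 0.87, adjusted p = 0.0441), lost without 15 Gy replicates 1 or 2 or 6 Gy replicates 1 or 3 (up to 0.161), and Ly6e (log2 fold change -2.32, adjusted p = 0.0189) was lost without 15 Gy replicate 1 or 6 Gy replicate 3 (up to 0.123). H2-Q5 (log2 fold change -2.06) belongs to a family of near-identical genes, and Snord12 stayed under 0.5 CPM in each of the 6 libraries.

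With CBLB502 given at both doses, the same contrast in 6 other libraries called 1986 genes (17.9%), 896 higher at 15 Gy (8.06%) and 1090 lower (9.80%). The number was 965 without 15 Gy with CBLB502 replicate 2, and 1069 and 1089 without 6 Gy with CBLB502 replicates 1 and 3. Of the genes called higher without CBLB502, 451 were also called higher with it, which is 47.2% of the 955 and 50.3% of the 896. Of those called lower, 487 were also lower, which is 62.4% of the 781 and 44.7% of the 1090, and no gene was called in opposite directions. The pairs share no library, but both 6 Gy groups stood apart in scaling from the rest of the series. Mitosis genes were lower with CBLB502 too, 15 of 18, and 13 of the 14 that fell without it were among them. Of these 18 genes, 9 would have passed the filter without the 6 Gy libraries of 24 h, those with CBLB502 included. The filter thus favours mitosis genes that are high at 6 Gy in either pair, and its part in this overlap was not tested. Plk1 had a log2 fold change of -2.00 (SE 0.34, adjusted p = 0.000799) with CBLB502. Of the ribosomal protein genes 48 of 52 were lower with CBLB502, including all 20 that fell without it. Of the brush-border genes 6 rose with CBLB502, 5 of them among the 14, and of the lipid genes 11 rose, 7 of them among the 12. Cebpb, Mbl2, Apoa1 and Ces2e kept their direction and their call. With CBLB502 the log2 fold change of Cebpb was -2.30 (SE 0.25, adjusted p = 1.6e-05) and that of Mbl2 2.87 (SE 0.61, adjusted p = 0.00371). That of Apoa1 was 1.12 (SE 0.24, adjusted p = 0.00377) and that of Ces2e 0.94 (SE 0.13, adjusted p = 0.000148). Of the 24 defence genes 5 rose and 1 fell with CBLB502, and Mbl2 and Cfb were the members called higher in both pairs. Nos2 did not pass with CBLB502, at a log2 fold change of -2.20 (SE 1.47, adjusted p = 0.316), nor did Duox2, at -1.85 (SE 1.00, adjusted p = 0.208), or Reg3g, at -0.23 (SE 0.45, adjusted p = 0.768). None of the T cell genes was called with CBLB502. The difference between the dose effect without and with CBLB502 was tested in the same fit, after these values had been seen. No gene passed in edgeR (0 of 11118, smallest adjusted p 0.297, 696 at an unadjusted p under 0.05), DESeq2 called 27 and limma on log2(FPKM + 1) 0. Without 15 Gy replicate 2 the number in edgeR was 22. For Nos2 the difference in log2 fold change was 8.93 (SE 2.11, adjusted p = 0.314) and for Duox2 6.95 (SE 1.48, adjusted p = 0.297). Both were called by DESeq2 (adjusted p = 0.00234 for Nos2 and 4.99e-05 for Duox2) and by edgeR without 15 Gy replicate 2 (0.0452 and 0.0371). Under the other alternatives neither passed, with adjusted p of 0.118 to 0.757.

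**Figure D4:**
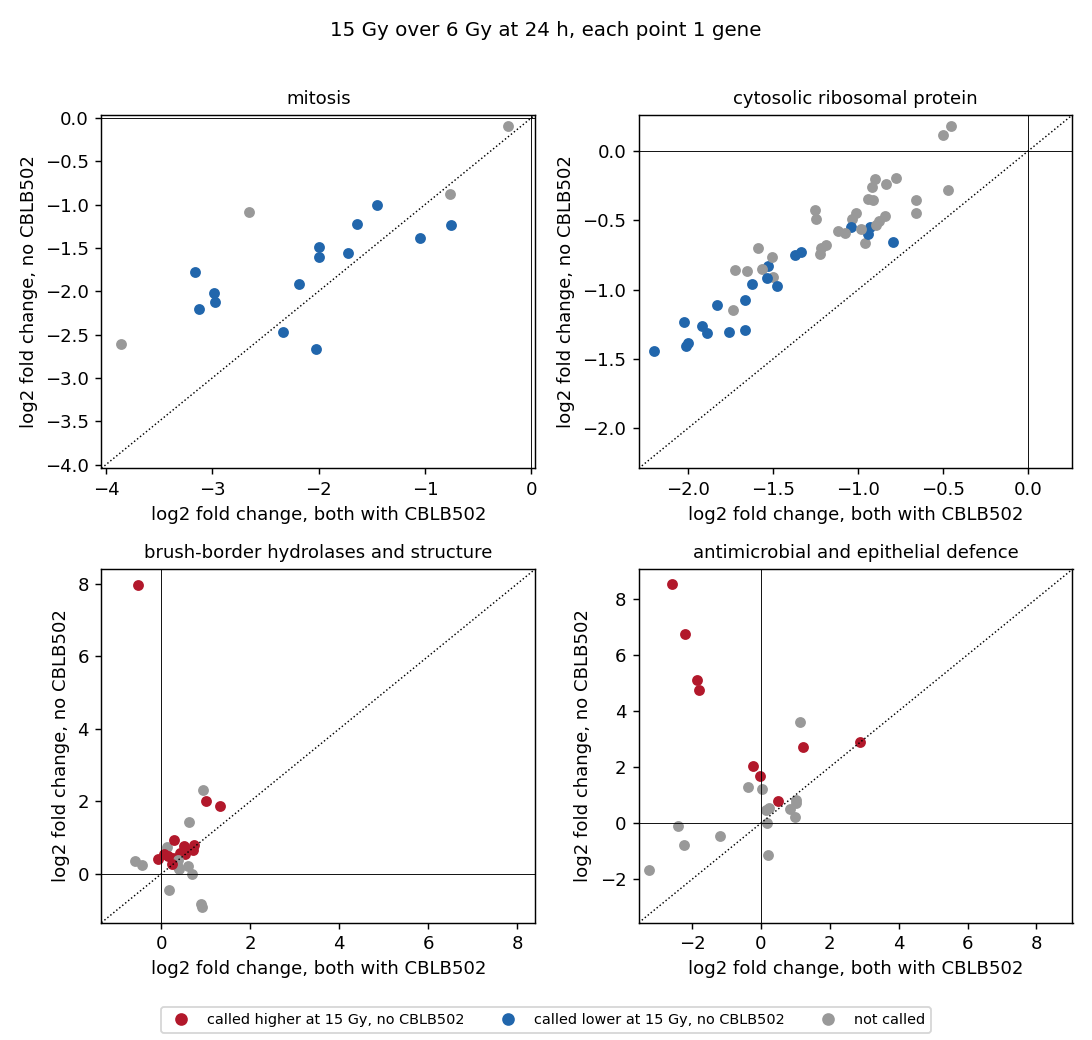
Log2 fold change of 15 Gy over 6 Gy at 24 h without CBLB502 (vertical) against that with CBLB502 at both doses (horizontal), 1 point a tested gene, in 4 lists, with the line of equal change dotted. Mitosis and nearly all ribosomal protein genes lie below 0 on both axes, brush-border genes mostly above 0 on both, and Nos2 and Duox2 lie above 5 on the vertical and below 0 on the horizontal axis.

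Dose effects at 24 h differed from those at 6 h for 3590 genes (32.3%), 1948 with a higher log2 ratio of 15 Gy over 6 Gy at 24 h (17.5%) and 1642 with a lower one (14.8%). These values compare 4 groups of 3 libraries, and the 24 h pair and the 6 h pair were not stated to have been prepared together. Duox2 had 10.3, 81.1 and 5.66 CPM in the 15 Gy libraries of 6 h and 1269, 586 and 737 CPM in the 6 Gy libraries of 6 h, the reverse of its order at 24 h, with a difference in log2 ratio (24 h minus 6 h) of 9.84 (SE 1.56, adjusted p = 7.1e-05). For Reg3g the 6 h values were 1209, 4929 and 1933 CPM at 15 Gy and 12680, 9433 and 10390 CPM at 6 Gy, with a difference of 4.05 (SE 0.66, adjusted p = 9.49e-05). Both genes thus stood higher at 6 Gy at the earlier time and at 15 Gy at the later one. Among the genes of cell division 8 of 18 mitosis genes differed between the times, 2 with a higher and 6 with a lower ratio at 24 h. Stmn1 had 5.3, 3.01 and 5.54 CPM at 15 Gy and 1.27, 1.62 and 1.35 CPM at 6 Gy at 6 h, with a difference of -4.18 (SE 0.60, adjusted p = 2.53e-05). Cebpb had 5.98, 6.33 and 6.11 CPM at 15 Gy and 4.58, 4.12 and 2.91 CPM at 6 Gy at 6 h, with a difference of -2.97 (SE 0.34, adjusted p = 2.14e-06). Slc51b had a difference of 3.68 (SE 0.31, adjusted p = 7.15e-08), with 97.2, 163 and 134 CPM at 15 Gy and 683, 593 and 540.1 CPM at 6 Gy at 6 h. Of the brush-border genes 13 of 28 differed, 10 with a lower ratio at 24 h than at 6 h, and Lct, which did not pass at 24 h, was at 5051, 4298 and 3696 CPM at 15 Gy and 1019, 896 and 848 CPM at 6 Gy at 6 h, with a difference of -2.05 (SE 0.29, adjusted p = 2.5e-05).

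**Figure D5:**
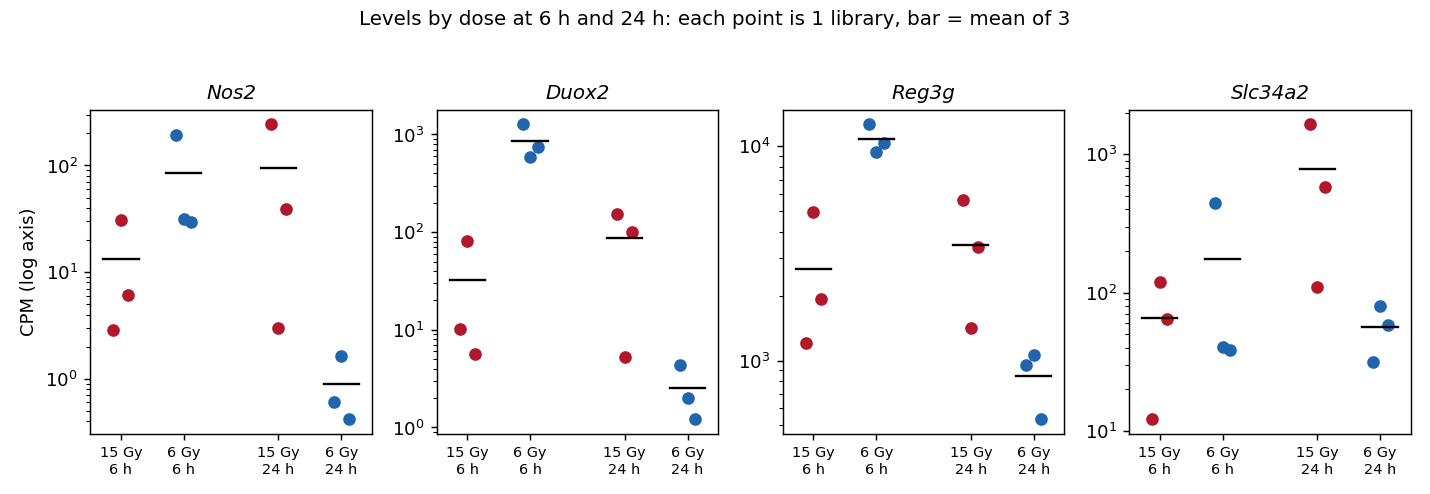
CPM (vertical log axis) of 4 genes at 6 h and at 24 h, 15 Gy left of 6 Gy at each time, 1 point a library with a bar at the mean of 3. The panels show Nos2, Duox2, Reg3g and Slc34a2, and Duox2 and Reg3g are higher in the 6 Gy libraries at 6 h and in the 15 Gy libraries at 24 h.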

How the data were processed

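RNA sequencing counts and FPKM values per gene were deposited by the authors in a table of 55401 genes for 27 libraries in 9 groups of 3. Per the submitters' processing notes, Bowtie 0.12.2, HISAT2 2.0 and StringTie 1.3.0 were used, and the build mm8 is named. In the deposited table the start and end of 51957 of 55141 genes (94.2%) equal those of GENCODE vM21 on GRCm38, so positions are given for GRCm38. FPKM values, deposited by the authors as reads per length and depth, hold 1e-04 where the count is 0. Whether counting used strand, and how it treated reads with several matches, no source used here gives.

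A gene was tested if 3 or more libraries reached FPKM 1 (11118 genes), and 23888 genes had no count. All 27 libraries entered 1 edgeR 4.0.16 quasi-likelihood fit with TMM scaling in R 4.3.3, and genes were called at a Benjamini-Hochberg adjusted p under 0.05 over all genes tested. The common dispersion was 0.0961, a biological coefficient of variation of 31%. CPM are counts divided by the TMM-scaled library size of the tested genes, and an SE is the log2 fold change divided by the square root of F. Alternatives used DESeq2 1.42.0, limma 3.58.1 on log2(FPKM + 1) or log2(FPKM + 0.1), other scaling, no filter, a replicate block, fewer libraries in the fit and each library left out. On simulated counts for the 15 Gy over 6 Gy comparison at 24 h (11118 genes), the test recovered 14%, 50%, 84% and 96% of 50 genes each changed 1.5-, 2-, 4- and 8-fold, and 7 of 129 calls were false. The changed genes were drawn from those above a minimum mean count. All other genes had the same mean in every group, so the simulated doses did not differ in make-up as the real libraries did. These shares therefore do not carry over to genes with low counts or to the number of false calls in the real comparison.

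The comparison and the 41 gene lists were chosen with earlier results of these data known. Genes named by size are 12 that rose and 12 that fell most, called, with non-overlapping groups and a mean FPKM of 5 or more in the higher group, without predicted, clone-named, pseudogene and receptor or antibody segment genes, and without the pancreas, fibroblast and smooth muscle lists. Further named genes are up to 4 of each list with the smallest adjusted p and a fixed set of markers. Plb1, Clps, Ube2c, Cks1b and Cks2 were named after their values were seen. Figures were drawn with matplotlib 3.10.9.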

Additional observations from a re-analysis of the deposited data

Results flagged for a closer look

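For 8 genes the log2 ratio of 15 Gy over 6 Gy differed between 24 h and 6 h by the interaction term of edgeR's quasi-likelihood fit. They are the 4 largest positive and 4 largest negative differences among the genes chosen by the rule given in the methods, of which Pnliprp1 and Sycn are pancreas genes not described above. The differences, at 24 h minus at 6 h, were positive for Saa1 (15.4985), Duox2 (9.83687), Nos2 (9.39943) and Slc34a2 (5.20298). Mean levels of Duox2 were 86.6 CPM at 15 Gy and 2.53 CPM at 6 Gy at 24 h, and 32.3 CPM at 15 Gy and 864 CPM at 6 Gy at 6 h. Saa1 averaged 13.2 CPM at 15 Gy and 0.034 CPM at 6 Gy at 24 h, and 1.93 CPM at 15 Gy and 240 CPM at 6 Gy at 6 h. Nos2 averaged 95.0 CPM at 15 Gy and 0.884 CPM at 6 Gy at 24 h, and 13.3 CPM at 15 Gy and 84.1 CPM at 6 Gy at 6 h. Slc34a2 averaged 779 CPM at 15 Gy and 56.8 CPM at 6 Gy at 24 h, and 65.5 CPM at 15 Gy and 176 CPM at 6 Gy at 6 h. In their means all 4 were higher at 15 Gy at the later time and at 6 Gy at the earlier one. The libraries spread widely, with SDs at 6 Gy and 6 h of 336 CPM for Saa1, 92.9 CPM for Nos2 and 236 CPM for Slc34a2. Each of these SDs exceeded its mean, while that of Duox2 was 359 CPM and did not. At 15 Gy and 24 h the SDs of Saa1, Nos2 and Slc34a2 exceeded their means too, at 15.0, 129 and 787 CPM.

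Negative differences were those of Ugt1a9 (-8.98244), Pnliprp1 (-8.5876), Col1a1 (-8.56192) and Sycn (-8.49351). Ugt1a9 averaged 1.18 CPM at 15 Gy and 99.0 CPM at 6 Gy at 24 h, and 81.7 CPM at 15 Gy and 13.4 CPM at 6 Gy at 6 h. Its SDs at 6 h, 126 CPM at 15 Gy and 16.3 CPM at 6 Gy, exceeded the means. Pnliprp1, a lipase of the pancreas, averaged 0.592 CPM at 15 Gy and 63.8 CPM at 6 Gy at 24 h, and Sycn, a protein of zymogen granules, 0.0549 and 36.2 CPM. Col1a1 averaged 0.198 CPM at 15 Gy and 21.9 CPM at 6 Gy at 24 h. These 3 genes were under 0.5 CPM in the means of both 6 h groups. At 6 Gy and 24 h the SDs of Pnliprp1 and Sycn, 106 and 60.9 CPM, exceeded their means, while that of Col1a1 was 5.38 CPM. Fitted differences of genes near 0 in a group depend on the prior count and give no bound. The part of pancreatic and connective tissue in the 6 Gy libraries of 24 h was not tested.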

How the results depend on the processing

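Of 1736 genes called between 15 Gy and 6 Gy at 24 h, the number was 1142 with no filter on low values, 307 with only the compared libraries in the fit, 4449 by limma on log2(FPKM + 1), 4053 on log2(FPKM + 0.1), 580 without the 2 doubtful libraries and 714 to 1870 with 1 library left out. Median-ratio scaling gave 1746, DESeq2 2264 and leaving the 6 Gy with CBLB502 group out of the fit 1510. Deviations of same-numbered libraries from their group means had r of -0.0542, -0.062 and -0.0128 without CBLB502. With CBLB502 they had r of 0.0488, 0.0511 and 0.0579. Such values cannot tell whether a number marks a shared day or batch, which the labels do not give. A replicate block gave 1635. With CBLB502 the count of 1986 was 3827 and 3396 on the FPKM scales and 965 to 1805 with 1 library left out. The difference between the pairs, 0 genes in edgeR, was 27 by DESeq2 and 0 to 22 with 1 library left out. On the log2(FPKM + 1) and log2(FPKM + 0.1) scales, where all genes shifted down, the sign turned for Ccng1 (-0.1178 and -0.1218), Cdkn1a (-0.09449 and -0.09575), Mdm2 (-0.166 and -0.1817), Lct (-0.2584 and -0.259), Sis (-0.06528 and -0.06537) and Muc2 (-0.4007 and -0.4035), and for Vil1 (-0.02512 and -0.02516), which passed as reported. Without the 2 doubtful libraries Clu was at 0.2159 and Muc2 at -0.003865, and with 1 library left out the Clu log2 fold change ranged from -0.5804 to 0.3646 and the Muc2 log2 fold change from -0.05311 to 0.2056. None of the other 7 genes passed the test as reported, and the cause of the turns outside the FPKM scale was not tested. Of the 102 genes named in the text and called, 23 were called under every alternative that included them and 56 without each of the 6 libraries in turn. There were 17 such alternatives for the genes among the 23, except 16 for mt-Tg and mt-Td. With 3 libraries a group, 14% of genes changed 1.5-fold were recovered on simulated data, whose settings differ from these data as set out in the methods.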
